A study of Mus musculus with 6 samples.

Results

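The genes that build and mineralize bone were examined in the cochlea of young and old mice. The 10 genes were chosen by their function: the osteoblast regulators Runx2 and Sp7, the matrix and mineralization genes Ibsp, Bglap, Bglap2, Spp1 and Alpl, and the osteocyte genes Dmp1, Phex and Sost. They are 10 of the 25823 genes in the expression table, and 10 of 10 were among the 19649 genes with a mean level high enough to be tested. Levels are FPKM (fragments scaled to transcript length and to the number of mapped fragments), summed over the transcripts of each gene. Total RNA from the cochlea of C57BL/6 mice, a strain that loses its hearing early with age, was sequenced in 3 samples at 1 month (young) and in 3 samples at 12 months (old). Tissue from 3 mice was mixed in each sample, so that n = 3 counts pools, and no treatment or gene alteration distinguished the groups. P-values therefore set the difference between the ages against the spread between these pools. The labels name the cochlea as the tissue and describe dissection of the basilar membrane, the sheet that carries the hair cells. Pools may differ in the bone that was taken along, and each sample is therefore given separately.

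Osteoblasts lay down a matrix of type I collagen and load it with calcium phosphate, and those that become buried in it mature into osteocytes. RUNX2 commits a precursor cell to the osteoblast line and SP7 (osterix) acts after it. Sialoproteins and osteocalcin then bind mineral in the matrix, alkaline phosphatase removes pyrophosphate that blocks crystal growth, and osteocytes govern phosphate and further bone formation. The cochlea is enclosed by a bony capsule and wound around a bony core, the modiolus.

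In 9 of 10 genes the mean level was lower in old mice, and in 1, Alpl, it was higher. Ibsp and Sp7 fell with age in the test across all genes (limma with Benjamini-Hochberg adjustment, threshold 0.05), and 8 genes did not pass. Over all genes tested, 3.68% passed lower and 5.41% higher. No gene of the 10 passed as higher, and at an unadjusted p below 0.05 limma counted 9 lower and 1 higher, against 13.0% and 14.5% of all genes. The old samples lay below all young samples for 8 genes and above them for 1, where 16.0% and 17.5% of all genes did so. The median log2 change, old minus young on the log2(FPKM + 0.1) scale, was -1.05 for the 10 genes and 0.01 for all genes tested. In these bulk samples, fewer cells of a type and less RNA per cell cannot be told apart.

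**Figure D1:**
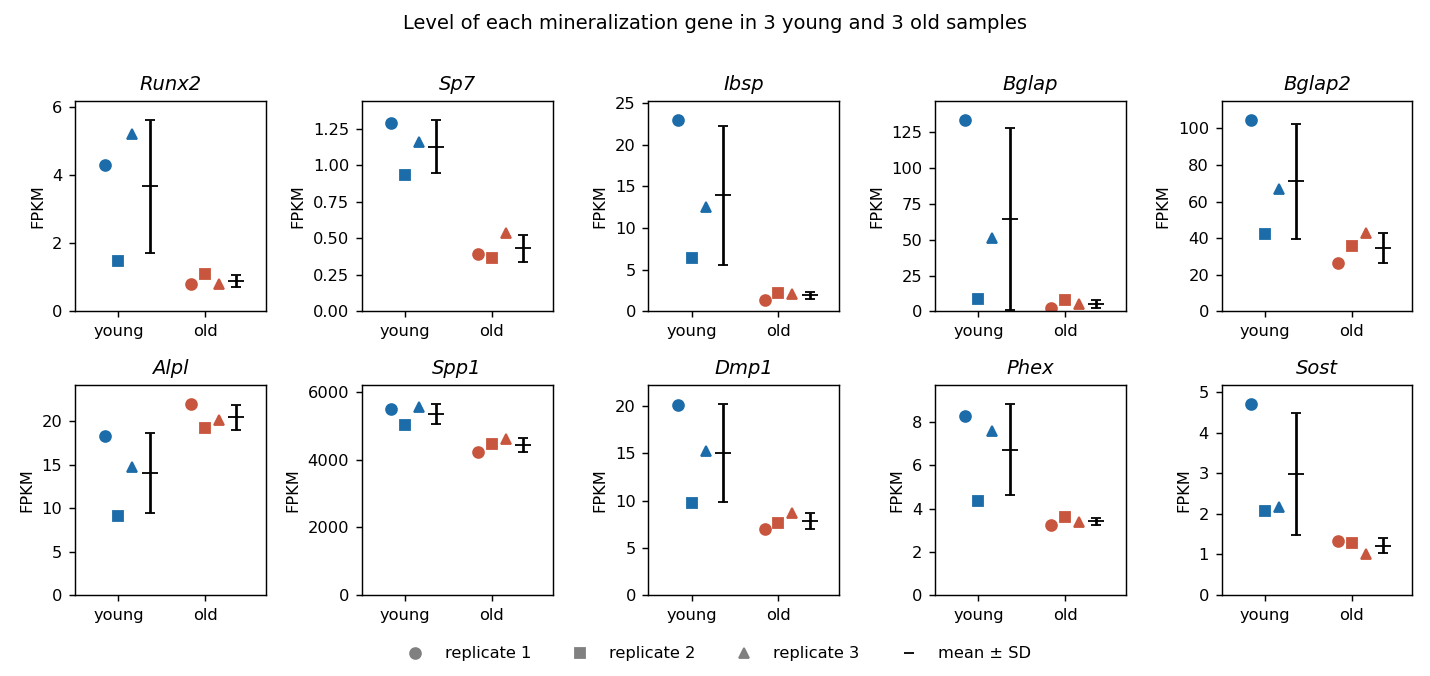
FPKM of each of the 10 genes (vertical axes, linear, starting at 0) in the 3 young and 3 old samples. Symbols mark replicates 1, 2 and 3, and the bar beside them gives mean ± SD. Young replicate 2 was the lowest young sample in 10 of 10 genes, the old samples stayed close together for most genes, and only Alpl had a higher mean in old mice.

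Runx2 (chr17:44495987-44814797, minus strand, GRCm38), the regulator at the head of the lineage, had 4.31, 1.49 and 5.21 FPKM in young replicates 1, 2 and 3. It had 0.792, 1.11 and 0.807 FPKM in old replicates 1, 2 and 3. Every old sample lay below every young sample, but young replicate 2 was nearer to the old samples than to the other young ones. The means were 3.67 ± 1.94 and 0.904 ± 0.182 FPKM (SD, n = 3), and the log2 change of -1.75 (SE 0.45, 95% interval -2.80 to -0.70) did not pass (adjusted p = 0.0542). Without young replicate 2 it was -2.28 and passed (adjusted p = 0.0306). Here and for the other genes whose samples did not overlap, an exact two-sided permutation test over the samples gave 0.1, the smallest p that 3 samples against 3 allow.

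Runx2 has 2 start regions, and its transcripts differ in their first exon. The 4 transcripts of the distal start (5′ ends between 44814226 and 44814797) summed to 2, 0.329 and 1.55 FPKM in the young samples and to 0.65, 0.653 and 0.529 FPKM in the old ones. The 5 transcripts of the proximal start (5′ ends between 44734693 and 44736648) summed to 2.31, 1.17 and 3.66 FPKM in young and to 0.142, 0.461 and 0.278 FPKM in old samples. Most of the proximal sum in young replicates 1 and 3 came from 1 transcript of 440 nt, ENSMUST00000160199, at 2, 0.382 and 3.28 FPKM in young and 0, 0.405 and 0 in old samples. No fragment number could be estimated for a transcript this short. Without transcripts under 500 nt, the log2 change of Runx2 was -1.06 (adjusted p = 0.0618).

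Sp7 (chr15:102356606-102367182, minus strand), a zinc finger factor needed for osteoblast maturation, was the lowest of the 10 genes in both ages. It had 1.29, 0.937 and 1.16 FPKM in young and 0.395, 0.364 and 0.537 FPKM in old samples. The ages did not overlap, and the young samples were close to each other. From 1.13 ± 0.18 to 0.432 ± 0.0925 FPKM (SD, n = 3), Sp7 fell by 1.21 on the log2 scale (SE 0.30, 95% interval of the change -1.92 to -0.51, adjusted p = 0.049), and the ratio of the means was 2.62. These values correspond to an estimated 36.3 to 48.1 fragments in a young sample and 13.9 to 20.4 in an old one. The call was at the edge of the threshold: with any 1 of the 6 samples left out it no longer passed (adjusted p 0.0811 to 0.146), while the log2 change stayed between -1.35 and -1.12. A pseudocount of 1 in place of 0.1 reduced the change to -0.57.

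Ibsp (bone sialoprotein, chr5:104299171-104311469, plus strand), an acidic matrix protein that seeds mineral crystals, had the clearest difference. The young samples had 22.9, 6.36 and 12.5 FPKM and the old samples 1.43, 2.25 and 2.08 FPKM. The lowest young sample, replicate 2, was still above every old sample. From 13.9 ± 8.37 to 1.92 ± 0.431 FPKM (SD, n = 3), Ibsp fell by 2.63 on the log2 scale (SE 0.43, 95% interval of the change -3.64 to -1.63, adjusted p = 0.0207), and the ratio of the means was 7.25. An estimated 156.4 to 540.7 fragments lay behind the young values and 32 to 62.9 behind the old ones. The call held without young replicate 1, 2 or 3 (adjusted p = 0.0315, 0.0253 and 0.0343) and was lost without old replicate 1, 2 or 3 (0.0636, 0.0696 and 0.0575). It was also lost without the variance trend (0.0641).

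Osteocalcin, the calcium-binding protein of mature osteoblasts, is encoded in the mouse by Bglap (chr3:88383501-88384464) and Bglap2 (chr3:88377736-88378699), which lie next to each other on the minus strand beside a relative, Bglap3 (chr3:88368616-88372743). The coding sequences below, from the GRCm38 genome with GENCODE M21 annotation, are shown because they bear on how well fragments of these genes can be told apart. Each has 288 bases. Capitals mark the bases of Bglap and Bglap3 that differ from Bglap2, and in Bglap2 those that differ from Bglap.
Bglap: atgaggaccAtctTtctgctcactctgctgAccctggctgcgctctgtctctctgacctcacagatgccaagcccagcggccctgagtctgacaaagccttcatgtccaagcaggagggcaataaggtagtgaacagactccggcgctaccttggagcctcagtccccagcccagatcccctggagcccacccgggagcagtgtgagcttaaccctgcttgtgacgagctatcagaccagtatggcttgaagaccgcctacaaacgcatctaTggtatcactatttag
Bglap2: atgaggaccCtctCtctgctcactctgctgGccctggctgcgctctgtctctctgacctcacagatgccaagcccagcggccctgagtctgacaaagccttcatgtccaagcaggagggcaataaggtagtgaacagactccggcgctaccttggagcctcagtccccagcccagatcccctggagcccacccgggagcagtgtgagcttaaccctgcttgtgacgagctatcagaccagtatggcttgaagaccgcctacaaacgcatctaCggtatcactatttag
Bglap3: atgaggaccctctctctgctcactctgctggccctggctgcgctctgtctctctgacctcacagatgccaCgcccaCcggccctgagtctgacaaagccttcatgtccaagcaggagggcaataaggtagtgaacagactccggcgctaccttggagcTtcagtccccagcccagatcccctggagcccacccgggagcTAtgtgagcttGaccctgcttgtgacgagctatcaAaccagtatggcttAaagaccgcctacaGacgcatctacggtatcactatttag
Bglap and Bglap2 differ at 4 coding bases (98.6% identity), and Bglap3 differs from Bglap2 at 9 (96.9%). The longest stretch that the Bglap and Bglap2 transcripts share without a difference is 241 nt. Of all 150 nt windows, the length of 1 read, 31.6% in the Bglap transcript and 28.6% in the Bglap2 transcript occur exactly in another gene of the group. The share for whole fragments, which are read from both ends, can be lower and was not computed. The division of fragments between these genes is therefore uncertain, as are FPKM values of transcripts of only 440 nt (Bglap) and 471 nt (Bglap2).

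With that limit, Bglap was the most variable of the 10 genes, at 133.4, 8.61 and 51.3 FPKM in young and 2.2, 8.09 and 5.45 FPKM in old samples. Young replicate 2 was barely above old replicate 2, whereas young replicate 1 was far above every other sample. The means were 64.4 ± 63.4 and 5.25 ± 2.95 FPKM (SD, n = 3), a ratio of 12.3, and the log2 change of -3.05 (SE 0.94, 95% interval -5.26 to -0.85) did not pass (adjusted p = 0.0868). Left-out samples moved it from -2.17 without young replicate 1 to -4.14 without young replicate 2, where it passed (adjusted p = 0.0394).

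Bglap2 had 104.4, 42.1 and 67.1 FPKM in young and 26.3, 35.5 and 42.7 FPKM in old samples, and old replicate 3 lay just above young replicate 2. Its log2 change of -0.96 (SE 0.32, 95% interval -1.71 to -0.21) did not pass (adjusted p = 0.105, exact permutation p = 0.2). Bglap3 had 63.9, 44.2 and 68.4 FPKM in young and 38.3, 53.6 and 53.7 FPKM in old samples (log2 change -0.27, adjusted p = 0.418). The sum of the 3 genes, which still depends in part on the division of fragments because FPKM is scaled to transcripts of different lengths, was 301.6, 94.9 and 186.8 FPKM in young and 66.8, 97.2 and 101.9 FPKM in old samples. Young replicate 2 was within the range of the old samples for this sum, and its log2 change of -1.0 (SE 0.39, 95% interval -1.91 to -0.10) did not pass (adjusted p = 0.146). The sum was chosen after seeing the data.

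Spp1 (osteopontin, chr5:104435118-104441050, plus strand), a phosphoprotein of bone matrix that macrophages and several epithelia also make, stood apart in level. It ranked 9 of all genes tested by mean FPKM, with 5485, 5022 and 5550 FPKM in young and 4216, 4462 and 4613 FPKM in old samples. All old samples were below all young ones, and neither age spread widely. The means were 5353 ± 288.1 and 4430 ± 200.7 FPKM (SD, n = 3), and the log2 change of -0.27 (SE 0.09, 95% interval -0.47 to -0.07) did not pass (adjusted p = 0.0891). With quantile normalization the change was -0.02 (adjusted p = 0.849). The main transcript, ENSMUST00000031243, made up 91.9 to 93.7% of the gene's FPKM in every sample (log2 change -0.29, adjusted p = 0.131).

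A minor Spp1 transcript went the other way. ENSMUST00000112747, which starts downstream at 104436192, had 10.3, 11.2 and 9.5 FPKM in young and 16.2, 16.2 and 15.1 FPKM in old samples. The ages did not overlap, and the log2 change of 0.62 (SE 0.10) was just outside the threshold over all transcripts (adjusted p = 0.0558). It passed with a minimum mean of 1 FPKM (0.0427) and with sample weights (0.0452), and in no other setting. Without the variance trend the limma adjusted p was 0.183, and with the replicate number as a block it was 0.161. With 1 sample left out it was 0.0733 to 0.184.

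Alpl (chr4:137741733-137796384, minus strand), the tissue-nonspecific alkaline phosphatase that frees phosphate at the surface of osteoblasts and many other cells, was the exception among the 10 genes. It had 18.3, 9.14 and 14.8 FPKM in young and 22, 19.2 and 20.2 FPKM in old samples. All old samples were above all young samples, although young replicate 1 came close. The means were 14.1 ± 4.61 and 20.5 ± 1.38 FPKM (SD, n = 3), and the log2 change of 0.59 (SE 0.23, 95% interval 0.05 to 1.13) did not pass (adjusted p = 0.151). With 1 sample left out the change lay between 0.31 (young replicate 2 omitted) and 0.81 (young replicate 1 omitted) and passed in none of the 6 fits.

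Most of the difference in Alpl lay in a short transcript. ENSMUST00000133473 (472 nt, 4 exons, chr4:137755086-137785371) had 0.72, 0.705 and 1.18 FPKM in young and 6.53, 4.29 and 6.18 FPKM in old samples. It rose by 2.59 on the log2 scale (SE 0.30, adjusted p = 0.036 over all transcripts), and its share of the gene's FPKM went from 3.94 to 7.99% in young to 22.3 to 30.6% in old samples. No fragment number was estimated for a transcript this short, and its FPKM values are uncertain. Without transcripts under 500 nt, the log2 change of Alpl was 0.23 (limma adjusted p = 0.56). The full-length transcript, ENSMUST00000030551 (2522 nt, 12 exons), had 17.5, 8.43 and 13.6 FPKM in young and 15.4, 15 and 14 FPKM in old samples, which overlapped (log2 change 0.23, adjusted p = 0.676). The call for the short transcript held without young replicate 3 (0.034) and was lost without any other sample (0.0733 to 0.128). It was the 1 call among the 23 transcripts of the 10 genes that were tested, of 29 in the table. Of all transcripts, 0.549% passed as higher and 0.199% as lower. None of the 23 passed as lower in limma. At an unadjusted p below 0.05, 10 were lower and 2 higher, against 7.98% and 9.05% of all transcripts, and the ages did not overlap for 11 lower and 2 higher, against 12.0% and 12.6%.

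The osteocyte genes had smaller differences than Ibsp and Bglap and less spread. Dmp1 (chr5:104202613-104214102, plus strand), a matrix protein that osteocytes use to direct mineral and phosphate, had 20.1, 9.73 and 15.2 FPKM in young and 7.03, 7.67 and 8.73 FPKM in old samples. The means were 15 ± 5.21 and 7.81 ± 0.859 FPKM (SD, n = 3), and the log2 change of -0.88 (SE 0.25, 95% interval -1.46 to -0.30) did not pass (adjusted p = 0.069). Young replicate 2 was the closest to the old samples, and without it the change was -1.16 and passed (adjusted p = 0.0394).

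Phex (chrX:157162075-157415312, minus strand), an endopeptidase of the cell surface whose loss causes X-linked hypophosphataemia, had 8.28, 4.33 and 7.57 FPKM in young and 3.24, 3.6 and 3.38 FPKM in old samples. The old samples were almost equal, and young replicate 2 was again the nearest to them. The means were 6.73 ± 2.11 and 3.41 ± 0.178 FPKM (SD, n = 3), and the log2 change of -0.91 (SE 0.24, 95% interval -1.48 to -0.34) did not pass (adjusted p = 0.0605). Without young replicate 2 it was -1.19 and passed (adjusted p = 0.0333). The transcript of 22 exons, ENSMUST00000079945, overlapped between the ages, at 5.33, 1.79 and 2.59 FPKM in young and 2.18, 1.7 and 1.85 in old samples. One of 15 exons, ENSMUST00000138396, did not overlap (log2 change -1.06, limma adjusted p = 0.184 over all transcripts). With only the most abundant transcript per gene, the change of Phex was -0.59 (limma adjusted p = 0.376).

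Sost (chr11:101962458-101967015, minus strand) encodes sclerostin, the WNT inhibitor by which osteocytes restrain osteoblasts. It had 4.7, 2.07 and 2.16 FPKM in young and 1.34, 1.29 and 1 FPKM in old samples. Here young replicate 1 stood alone, and replicates 2 and 3 were nearly equal and above the old samples. The means were 2.98 ± 1.49 and 1.21 ± 0.184 FPKM (SD, n = 3), and the log2 change of -1.14 (SE 0.34, 95% interval -1.93 to -0.35) did not pass (adjusted p = 0.0787) and ranged from -1.34 to -0.77 with 1 sample left out. An estimated 24 to 36 fragments per old sample and 48 to 110.7 per young sample gave these values.

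**Figure D2:**
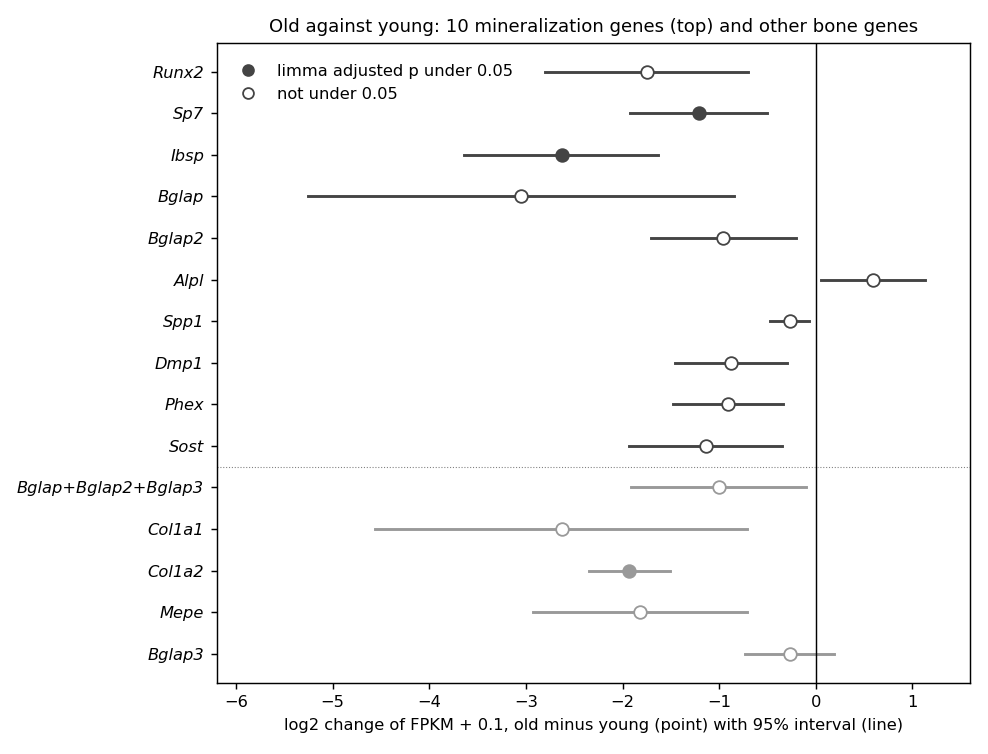
Log2 change of FPKM + 0.1, old minus young (horizontal axis), with its 95% interval as a line, for the 10 genes (dark) and for the Bglap sum, Col1a1, Col1a2, Mepe and Bglap3 (grey). Filled points had an adjusted p under 0.05: Ibsp and Sp7 among the 10 genes and Col1a2 beside them. The interval of Bglap, from -5.26 to -0.85, was the widest of those drawn.

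By level in young mice, from the highest, the order of the 10 genes was Spp1, Bglap2, Bglap, Dmp1, Alpl, Ibsp, Phex, Runx2, Sost and Sp7, on the FPKM scale. Only Spp1 with Bglap2, and Sost with Sp7, were neighbours whose samples did not overlap. In old mice the order was Spp1, Bglap2, Alpl, Dmp1, Bglap, Phex, Ibsp, Sost, Runx2 and Sp7, and the samples of Dmp1 and Bglap, Bglap and Phex, and Sost and Runx2 overlapped. Ibsp thus went from a level like that of Alpl in young samples to below that of Phex in old ones, and the mean of Bglap from above that of Dmp1 to below it, although their samples overlapped in both ages.

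The young samples did not carry equal amounts of these transcripts. Young replicate 2 was the lowest young sample in 10 of 10 genes, a place it took in 34.5% of all genes tested, and young replicate 1 was the highest in 8 of 10, against 32.2% of all genes. Young replicate 3 was the highest for Runx2 and Spp1. Among the old samples, replicate 1 was the lowest in 7 of 10 genes, against 36.3% of all genes.

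The size of this spread differed by gene. The highest young value divided by the lowest was 15.5 for Bglap, 3.6 for Ibsp, 3.48 for Runx2, 2.48 for Bglap2, 2.27 for Sost and 2.07 for Dmp1. It was 2 for Alpl, 1.91 for Phex, 1.38 for Sp7 and 1.11 for Spp1, and the median over 14869 genes was 1.23. Relative to the mean of the old samples, Ibsp was at 11.9, 3.32 and 6.5 times in young replicates 1, 2 and 3, and Dmp1 at 2.58, 1.25 and 1.95 times. Sp7 had more even ratios, at 2.99, 2.17 and 2.69. Without Spp1, the summed level of the other 9 genes was 317.7, 84.8 and 176.9 FPKM in young and 64.7, 79.1 and 84.9 FPKM in old samples. Young replicate 2 was no higher than old replicate 3 for this sum, to which the genes of highest FPKM contribute most. For Ibsp, Bglap, Bglap2 and Alpl it had 66.2 FPKM, against 51.9, 65.1 and 70.5 in old samples. It was above every old sample for Runx2 and Sp7 (2.43 against 1.19, 1.48 and 1.34 FPKM). The same held for Dmp1, Phex and Sost (16.1 against 11.6, 12.6 and 13.1 FPKM).

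**Figure D3:**
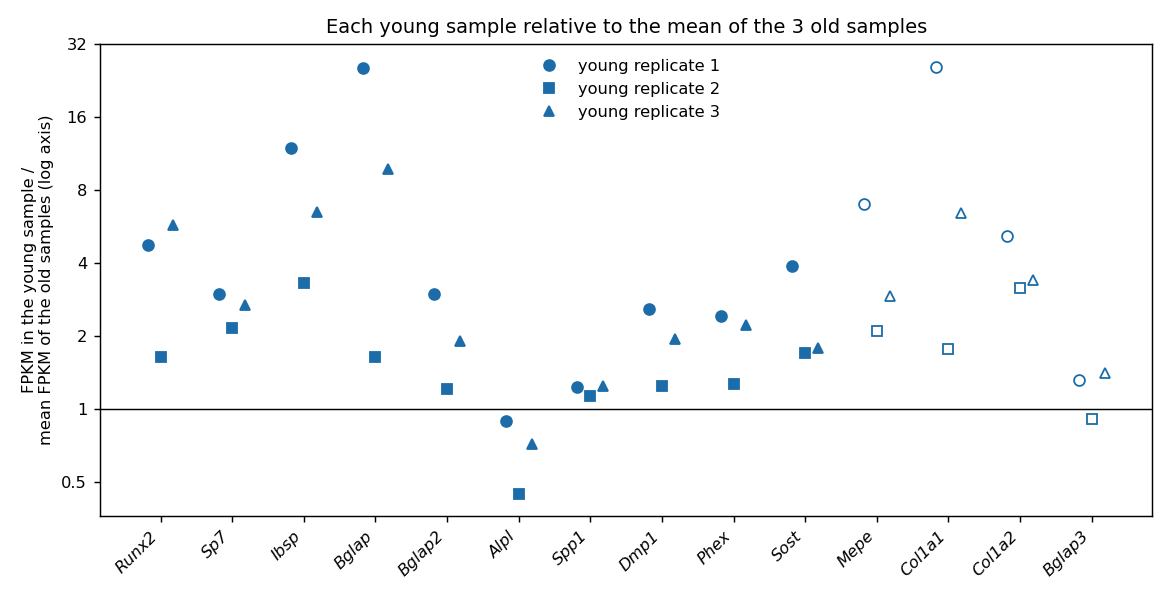
FPKM in each young sample divided by the mean FPKM of the 3 old samples (vertical axis, log scale; the line at 1 marks equal levels) for the 10 genes (filled) and for Mepe, Col1a1, Col1a2 and Bglap3 (open). Symbols mark the young replicates. Replicate 2 lay lowest for each of the 10 genes, at 1.64 for Bglap where replicate 1 was at 25.4, and Alpl was below 1 in all 3 young samples.

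Across the 6 samples, 9 of the 10 genes followed the mean of the others, with Pearson r from 0.87 for Sost to 1.00 for Dmp1, and Alpl did not (r = -0.32). These correlations are given as a description, since the points are 6 libraries of 2 ages and share both age and tissue content. Within the young samples alone Alpl had the same order as the osteocyte genes, with replicate 1 highest and replicate 2 lowest. Among 15065 other genes with a mean of at least 1 FPKM, those most like the mean profile of the 10 genes over the 6 samples included Fign (r = 0.991), Adgrb2 (0.988), Pelp1 (0.981) and Tsga10 (0.977). Their levels moved little, as with Fign at 1.86, 1.53 and 1.79 FPKM in young and 1.43, 1.42 and 1.46 FPKM in old samples.

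Leaving out 1 sample at a time changed which genes passed. Each of these fits also had fewer samples, so that a lost call does not by itself show dependence on the omitted pool. Ibsp changed by -2.45, -2.75 and -2.70 on the log2 scale without old replicates 1, 2 and 3, against -2.63 with all samples. Without young replicate 2, 5 of the 10 genes passed as lower (Bglap, Dmp1, Ibsp, Phex and Runx2), while the lower calls over all genes went from 724 to 79. Without young replicate 1 or 3, only Ibsp passed, and without any 1 of the old samples none did, with 7, 9 and 9 lower at an unadjusted p below 0.05 in limma. Over all genes, 168 and 821 were then lower without young replicates 1 and 3, and 103, 15 and 94 without old replicates 1, 2 and 3. In none of these 6 fits did a log2 change of the 10 genes turn its sign. Where the ages did not overlap, leaving out a sample could not turn it, so that only Bglap2 could have done so.

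**Figure D4:**
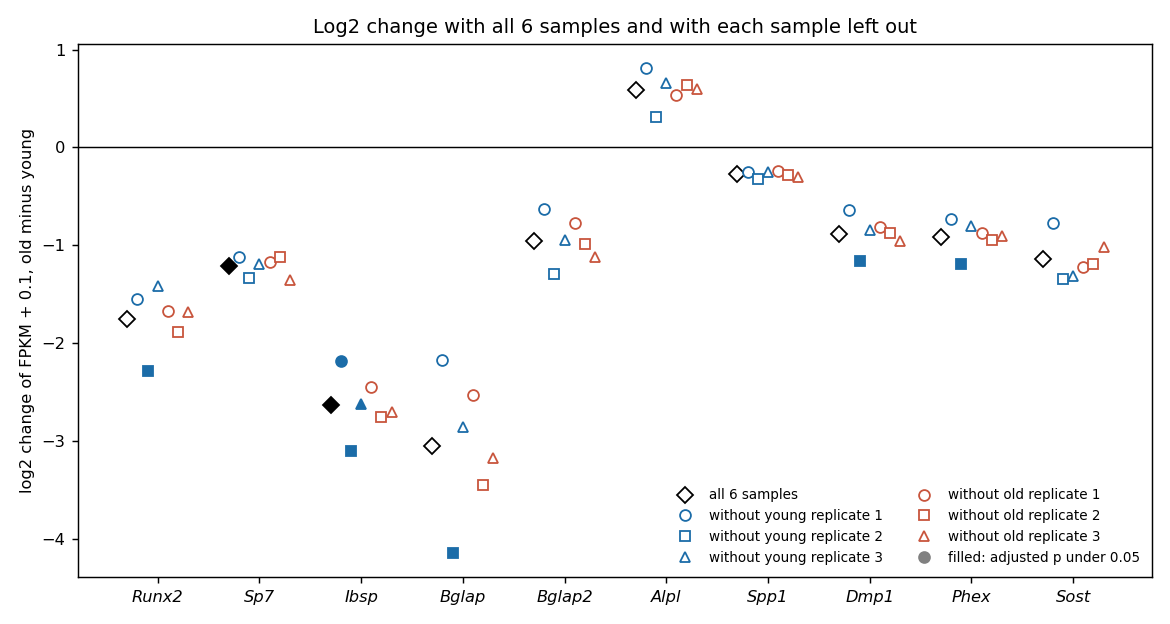
Log2 change of FPKM + 0.1, old minus young (vertical axis), for each of the 10 genes with all 6 samples (diamond) and with each sample left out (circle, square and triangle for replicates 1, 2 and 3). Filled symbols had an adjusted p under 0.05. Leaving out young replicate 2 gave 5 filled symbols, and leaving out an old sample gave none.

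Of the 22 other genes of bone matrix and mineralization that were listed and tested, 5 fell and 2 rose with age, and 15 did not pass (median log2 change -0.16). Col1a2, a chain of type I collagen, had 96.3, 59.1 and 63.5 FPKM in young and 20.4, 17.5 and 18.1 FPKM in old samples and fell by 1.93 on the log2 scale (SE 0.18, adjusted p = 0.00726). Every young sample, replicate 2 included, was well above the old samples for this gene. Smpd3, a sphingomyelinase needed for normal mineralization, fell by 1.08 (adjusted p = 0.0265), and Lox, which cross-links collagen, fell by 0.94 (adjusted p = 0.00528). The other 2 that fell were Omd and Serpinh1. Tmem119, a membrane protein of osteoblasts that microglia also carry, rose by 0.86 (adjusted p = 0.0321) and Kazald1 by 0.61 (adjusted p = 0.0233). Lox, Serpinh1 and Col1a2 are also made by fibroblasts.

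Col1a1, the other chain of type I collagen, had the pattern of Bglap, with 24.9, 1.71 and 6.21 FPKM in young and 1.07, 0.958 and 0.865 FPKM in old samples. Its log2 change of -2.63 (SE 0.82) did not pass (adjusted p = 0.089). Expressed relative to Col1a1 in the same sample, Bglap was at 5.36, 5.03 and 8.25 in young and 2.06, 8.45 and 6.3 in old samples, so that the ages overlapped. The ratio of Alpl to Col1a1 was 0.734, 5.34 and 2.38 in young and 20.6, 20.1 and 23.3 in old samples, without overlap. The ratios of Dmp1, Phex, Bglap2 and Spp1 were likewise higher in every old sample than in every young one, and those of Ibsp, Sp7, Runx2 and Sost overlapped as that of Bglap did. For Bglap2 the lowest old ratio was 24.7 and the highest young ratio 24.6. Because Col1a1 itself was lower in every old sample, genes that fell less than it have higher ratios there. The old Col1a1 values rest on an estimated 66.3 to 84.8 fragments each. Mepe, an osteocyte matrix gene that lies between Ibsp and Spp1 on chromosome 5 (chr5:104325329-104338611), had 10.4, 3.11 and 4.31 FPKM in young and 0.858, 1.55 and 2.02 FPKM in old samples (log2 change -1.82, SE 0.47, adjusted p = 0.0559). Dmp1, Ibsp, Mepe and Spp1 stand in this order on the plus strand of chromosome 5, and their log2 changes were -0.88, -2.63, -1.82 and -0.27.

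Among 25 listed regulators of osteoblasts and osteocytes, 24 were tested, none passed as lower (7 at an unadjusted p below 0.05) and 3 rose, with a median log2 change of -0.10. The 3 were Cd44 (0.77, adjusted p = 0.0264) and Pdpn (0.47, adjusted p = 0.0265), surface glycoproteins that osteocytes share with many other cells, and the growth factor gene Bmp7 (0.68, adjusted p = 0.0188). Of 14 listed osteoclast genes, 10 were tested, and none passed in either direction in limma (0 lower and 1 higher at an unadjusted p below 0.05, median log2 change -0.03).

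The levels of marrow genes also differed between the pools. The summed level of 9 neutrophil genes (Mpo to S100a9) was 438.3, 11.6 and 27.9 FPKM in young and 83.1, 44.4 and 15.1 FPKM in old samples, with Mpo and Elane at 0 in young replicates 2 and 3. Elane was also at 0 in old replicates 2 and 3, and Mpo in old replicate 3. S100a8 and S100a9 were the largest terms of this sum in every sample, at 227.9 and 158.6 FPKM in young replicate 1. The 4 hemoglobin genes summed to 2930, 1427 and 2730 FPKM in young and 1359, 1400 and 2244 FPKM in old samples. Young replicate 1, the highest young sample for 8 of the 10 genes, was also the highest for both sums, and young replicate 2 was the lowest young sample for both. The neutrophil sum of young replicate 3 was below those of old replicates 1 and 2, and its hemoglobin sum was above those of all old samples. Of the 17 marrow genes tested, none passed in either direction (1 lower and 0 higher at an unadjusted p below 0.05). The part of bone and marrow content in the changes of the 10 genes was not tested.

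Among listed genes of other cell types and of proliferation, those of hair cells and macrophages differed most between the ages. Over all genes tested, 3.68% passed lower and 5.41% higher, and at an unadjusted p below 0.05 in limma the shares were 13.0% and 14.5%. All 10 hair cell genes were detected, and 5 of 10 were lower in old mice and 0 higher. At an unadjusted p below 0.05 in limma, 8 were lower and 0 higher. Of 12 macrophage genes, 10 were higher, and their sum was 206.2 to 287.1 FPKM in young and 848.3 to 925.8 FPKM in old samples. Of 10 supporting and spiral ligament cell genes, 1 was lower and 1 higher (4 lower and 2 higher at an unadjusted p below 0.05 in limma). Of 11 proliferation genes tested, none passed and none had an unadjusted p below 0.05, and the summed list was 14.1 FPKM in young replicate 1 and 4.02 to 6.1 FPKM in the other 5 samples. Depth was similar, at an estimated 12560000 to 15670000 fragments per sample. The part of these shifts in the levels of the 10 genes was not tested.

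RUNX proteins bind the letters ACCACA, often as AACCACA, and the promoters of the 10 genes were searched for them because Runx2 is one of the 10. The RefSeq promoter table (GRCm38.p6) held 11 promoters for 8 of the 10 genes, and the 250 bases before each start were read on both strands. ACCACA, which AACCACA contains, occurred in 4 of the 11, and AACCACA in 3 of the 11, where 14.0% and 4.4% of all 32851 promoters held them. The matches began at -132 from the start in Bglap, -164 in Dmp1, -80 in Runx2 and -128 in Spp1, and the last 3 had the longer form. Ibsp and the other promoters searched had none. The promoters of Bglap (chr3:88384467-88384716, minus strand) and Spp1 (chr5:104434861-104435110, plus strand) are shown as examples of genes with a wide and a narrow spread, with ACCACA in capitals.
Bglap: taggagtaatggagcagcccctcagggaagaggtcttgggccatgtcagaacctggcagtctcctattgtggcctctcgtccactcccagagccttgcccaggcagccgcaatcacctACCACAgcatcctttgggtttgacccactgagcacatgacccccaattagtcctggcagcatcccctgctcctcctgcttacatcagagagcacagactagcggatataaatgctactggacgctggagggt
Spp1: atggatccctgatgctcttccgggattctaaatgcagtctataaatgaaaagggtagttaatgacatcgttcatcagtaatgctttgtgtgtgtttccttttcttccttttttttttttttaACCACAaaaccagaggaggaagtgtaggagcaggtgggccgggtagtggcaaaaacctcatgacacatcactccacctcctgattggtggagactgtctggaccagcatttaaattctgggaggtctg
Bglap and Spp1 thus both held the letters, with log2 changes of -3.05 and -0.27, while Ibsp, which fell by 2.63 on the log2 scale, did not hold them in this window. A match is a description of the letters and does not show binding.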

How the data were processed

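The deposited table holds FPKM values per transcript and sample, which the authors made from 150 nt paired-end reads of directional libraries. Per the submitters' processing notes, CASAVA 1.8, TopHat2 2.0.9, Cufflinks 2.1.1 and Cuffdiff 2.1.1 were used with GRCm38, and the annotation release is not given in the sources used here. Cufflinks divides fragments between transcripts that share sequence, so that values of close paralogs and short transcripts are uncertain. Of 55679 Ensembl transcripts, 55275 were matched to GENCODE M21, and their FPKM values were summed per gene. The other 404, and the 992 transcripts named LNC_ by the authors, were each kept as a gene.

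Old and young samples, grouped by their labels, were compared with limma 3.58.1 (R 4.3.3; lmFit, eBayes with trend, prior degrees of freedom 3.38) on log2(FPKM + 0.1), for genes or transcripts with a mean of at least 0.1 FPKM, two-sided, with Benjamini-Hochberg adjustment over all tested and a threshold of 0.05. Fold changes of low genes are understated on this scale. Exact permutation tests over samples were run for single genes. The code was tested on simulated data. Depth was derived from the spacing of small FPKM values (transcripts of 1000 to 4000 nt), of which 92.8 to 94.6% lay within 0.1 of a whole step (20% by chance). Fragment numbers were estimated from FPKM, transcript length and this depth. Besides counting error, they carry the error of the depth estimate and of the division of fragments between transcripts. Python 3.11.15 and matplotlib 3.10.9 were used for tables and plots.

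The members and lists were chosen with earlier results of these data known. Named genes are all 10 members, Col1a1, Col1a2, Bglap3, Mepe, up to 3 rises and 3 falls per list among genes past the threshold without overlap, and the 5 genes most like the mean profile, of which 1 is not reported here. Omd, Serpinh1, Mpo, Elane, S100a8 and S100a9, beyond that rule, were named after their values were seen. Alternatives were the pseudocount (0.01 and 1), the filter (none and a mean of at least 1 FPKM), scaling (median of ratios and quantile normalization), no variance trend, arrayWeights, a replicate block, each sample left out, the most abundant transcript per gene, and transcripts of at least 500 nt. Amino acid sequences were not used here.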

Additional observations from a re-analysis of the deposited data

How the results depend on the processing

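No log2 change of the 10 genes turned its sign under any alternative, and the median change of all genes moved from 0.01 to -0.02 at most with the scaling. For genes whose ages did not overlap, leaving out a sample or changing the pseudocount, filter or variance trend could not have turned the sign. Among the 10 genes, lower calls (2 as reported, Ibsp and Sp7) numbered 1 (Ibsp) with a pseudocount of 0.01, without a filter or with the most abundant transcript. Without the variance trend they also numbered 1, which was Sp7. There were 3 with quantile normalization (Ibsp, Runx2 and Sp7) and 3 with transcripts of at least 500 nt (Ibsp, Phex and Sp7). There were 4 with a minimum mean of 1 FPKM, 5 with arrayWeights, and 0 to 5 with 1 sample left out. Calls over all genes (724 lower, 1063 higher) were 292 and 616 without a filter, 121 and 271 without the trend, and 15 to 821 and 44 to 935 with 1 sample left out, the fewest without old replicate 2. For the other lists (15 lower, 20 higher), lower calls were 7 without the trend and 3 to 15 with 1 sample left out, and higher calls were 13 without a filter, 7 without the trend and 2 to 18 with 1 sample left out. Of the transcripts of the 10 genes (0 lower, 1 higher), 1 was lower and 2 higher with a minimum mean of 1 FPKM, 2 higher with arrayWeights, 0 higher without a filter, and 0 to 1 higher with 1 sample left out. The cause of these shifts was not tested.

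Same-numbered young and old samples deviated from their group means with correlations of 0.022, -0.0416 and 0.00997, so that no shared deviation was seen. Whether they were prepared together is not known from the labels. With the replicate number as a block, lower calls were 1 among the 10 genes (Ibsp), 265 over all genes and 11 in the other lists, higher calls were 410 over all genes and 13 in the lists, and 0 transcripts of the 10 genes were higher. The minimum mean of 1 FPKM removed Sp7, and transcripts of at least 500 nt left no value for Bglap and Bglap2. Treating Bglap, Bglap2 and Bglap3 as 1 gene, chosen after seeing the data, left 2 calls. Depth limits Sp7 and Sost, whose old samples rest on an estimated 13.9 to 36 fragments each, and no fragment numbers were estimated for Bglap and Bglap2.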

Other observations

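Cartilage genes, which a dissection of the cochlea could also carry, moved in both directions. Of 15 tested, 4 were lower and 4 higher in old mice. Among those that fell, the link protein gene Hapln1 changed by -1.87 on the log2 scale, from 4.16, 5.01 and 2.8 FPKM in young to 1.33, 1.04 and 0.698 FPKM in old samples, and the aggrecan gene Acan by -1.03, from 20.2, 20 and 17.3 FPKM to 8.65, 10.1 and 9.17 FPKM. Col11a1, a fibrillar collagen gene, changed by -0.48. Matn1, a matrilin of cartilage matrix, rose by 1.68, from 2.02, 1.52 and 1.92 FPKM to 5.53, 5.85 and 6.75 FPKM, and the collagen genes Col9a3 and Col9a1 by 0.67 and 0.50.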
